A study of Mus musculus with 12 samples.

Results

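The comparison described here sets 3 RNA-seq libraries from wild-type mice given angiotensin II and glycine against 3 from wild-type mice given angiotensin II and saline. They are 6 of the 12 libraries of the series and were chosen by their genotype and treatment labels alone. Glycine was given intraperitoneally at 800 mg/kg per day, saline by the same route, and all of these mice had been infused with angiotensin II, the peptide hormone that constricts arteries and raises blood pressure. The other 6 libraries come from Glra2 global knockout mice given angiotensin II with glycine or saline. A knockout glycine library carries a dose label of 80 mg/kg per day, and every other glycine library a label of 800. The knockout libraries enter here only to share the estimate of spread and to show where the wild-type response differs. By the labels the RNA is from endothelial cells of the aorta. No label says whether the 3 libraries of a group are separate animals, so the p-values measure the spread between libraries, which may be technical.

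Glycine is the smallest amino acid and also a transmitter that opens chloride channels, the glycine receptors, of which Glra2 encodes an alpha subunit. Macrophages, which can carry glycine-gated chloride channels, are the main resident immune cells of the arterial wall. There they take up debris and lipoproteins through scavenger receptors and lectins and break them down in lysosomes. Angiotensin II is known to draw monocytes and macrophages into the wall and to increase the matrix that fibroblasts lay down.

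The libraries held 14458015 to 18533619 estimated counts, and a floor of 3 counts equals 0.147 to 0.279 CPM (estimated counts scaled to the library size). Mitochondrially encoded genes took 49.96, 64.7 and 52.1% of the counts in saline libraries 1, 2 and 3, and 38.5, 30.6 and 36.4% in glycine libraries 4, 5 and 6. These ranges do not overlap. Haemoglobin genes took 1.03 to 1.80% with saline and 1.24 to 5.13% with glycine, with glycine 5 highest. Markers of other cells were present beside the labelled type: the median member of the endothelial list stood at 7.39 to 11 FPKM in the saline libraries, that of the adventitial fibroblast list at 127 to 297 FPKM and that of the macrophage and monocyte list at 31.8 to 35 FPKM. In the same libraries the median member of the cardiac muscle list stood at 23.5 to 58.9 FPKM and that of the erythroid list at 39.98 to 55.25 FPKM. Medians of some other lists were below the endothelial one, such as smooth muscle at no more than 5.3 FPKM and adipocyte at no more than 4.62 FPKM. Every one of the 30 endothelial markers had counts in both groups. Glycine 4 stood apart from the other libraries on the second principal component, and 12932 genes were detected in it, against 13377 to 14382 in the remaining wild-type libraries. Glra2 had 0 counts in all 6 libraries.

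With glycine, genes of macrophages rose together: receptors that bind antibody and sugars, members of the MS4A membrane family, complement components and lysosomal proteases. Immunoglobulin genes rose beside them, led by Igha, the constant region of the IgA heavy chain. Genes lower with glycine were of other kinds. They included the endothelial receptor gene Kdr, the basement membrane genes Lamb1 and Col4a1, the mesenchymal transcription factor genes Meox1, Tcf21 and Sox9, and 4 mitochondrially encoded genes. In these bulk libraries a change in the number of cells of a type and a change in RNA per cell cannot be told apart.

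Of 13922 genes tested with the edgeR quasi-likelihood test, 193 had an adjusted p below 0.05, which is 1.39% of the genes. Of these, 138 were higher (0.991%) and 55 lower (0.395%), by log2 fold changes of 0.62 to 9.08 and of -0.82 to -6.55. At an unadjusted p below 0.05 there were 1668 genes. For 190 of the 193, every library of one group lay above every library of the other. Over all genes tested, all glycine libraries lay above all saline libraries in 8.53% and below in 7.19%. Each of the 193 genes had the same direction on the authors' FPKM values, where the median of all genes shifted by 0.36 on the log2 scale and 95.2% of calls were rises, against 71.5% on counts. Of the 138 rises 132 were also called on FPKM, but of the 55 falls only 29. The FPKM values were not rescaled between libraries, so with this shift a rise passes more easily there than a fall. Among the falls described below, those of Kdr, Podxl, Col4a1, Rgs5, Ccdc80, Cd55, Pde1a and Cxcl14 did not pass on FPKM (adjusted p = 0.0701, 0.229, 0.413, 0.126, 0.182, 0.0821, 0.177 and 0.0688).

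Lists for macrophage and monocyte function held 229 tested genes between them, of which 53 rose (23.1%, against 0.991% of all genes) and 1 fell. They supplied 38.4% of all rises. Their median log2 fold change was 0.57, where the median of all genes was 0. Of the 229, 110 had glycine libraries wholly above saline libraries, against 8.53% of all genes. The lists were chosen with earlier results of these data known, so these shares are a description. Some of the lists, such as lysosome, complement and leukocyte signalling, are not particular to macrophages. The count of 53 was 57 without glycine 4, the library that stood apart, and 23 to 63 over the fits that left out 1 wild-type library. It was 29 without saline 1, 23 without saline 3, 29 without glycine 5 and 24 without glycine 6. With only the 6 wild-type libraries it was 11, with DESeq2 82, and on FPKM 113 to 132. Rises over all genes in the same fits were 18, 359 and 773 to 1032, beside 138 in the main fit. On FPKM the median of all genes was itself raised, by 0.22 to 0.46. The summed level of the core macrophage markers ran from 4340 to 6242 CPM with saline and from 9090 to 9506 CPM with glycine. Between the groups the share of mitochondrially encoded counts went in the opposite direction. Within the saline group it did not: saline 2 had the highest share (64.7%) and the highest sum, and saline 1 the lowest of both. The part of that share in these results was not tested. Leaving the 13 mitochondrially encoded genes out of the table gave 53 rises in these lists, the number found with them in. That fit changes only which genes are scaled and tested. It cannot show whether the share marks a difference between the groups of libraries, which was not tested.

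Of 22 resident macrophage markers 10 rose and none fell, with a median log2 fold change of 0.91. For this and every list below, the shares called over all genes were 0.991% higher and 0.395% lower. Mrc1, the mannose receptor of tissue macrophages, was at 98.2, 148 and 124 CPM in saline libraries 1 to 3 and at 340, 283 and 280 CPM in glycine libraries 4 to 6, the order used throughout. The highest saline library lay well under the lowest glycine library (log2 fold change 1.29 ± 0.19 SE, adjusted p = 0.0051). Ccl8, a chemokine gene of resident macrophages, was at 180, 236 and 111 CPM with saline and at 995, 539 and 613 CPM with glycine (2.03 ± 0.29, adjusted p = 0.00452). Cd209f, a lectin gene related to DC-SIGN, was at 23.8, 45.0 and 17.5 CPM with saline and at 140, 112 and 108 CPM with glycine (2.07 ± 0.29, adjusted p = 0.00383). For all of these the groups are apart, and each call remained whichever wild-type library was left out. F13a1, the coagulation factor XIII A subunit that macrophages make, rose by 1.12 ± 0.20 (adjusted p = 0.0143), and Cbr2, a carbonyl reductase gene, by 1.02 ± 0.19 (0.0152). Cd163, the scavenger receptor for haemoglobin, Folr2, a folate receptor, Adgre1, which encodes F4/80, and Gas6, a ligand that bridges dying cells to phagocytes, also rose, by 0.90, 1.25, 0.93 and 0.98. Highest adjusted p values with a library left out were 0.0605 for F13a1 without saline 1, 0.0631 for Cbr2 without saline 3, 0.0677 for Cd209g without saline 3, 0.0933 for Cd163, 0.115 for Folr2, 0.153 for Adgre1 and 0.111 for Gas6, the last 4 without glycine 6. Among members that did not pass were Lyve1 (0.49, adjusted p = 0.45), Timd4 (-0.52, 0.83) and Vsig4 (-0.35, 0.87), which mark long-lived resident macrophages.

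In the core macrophage and monocyte list 7 of 21 genes rose, with a median of 0.76. Lyz2, lysozyme M, was at 2461, 3683 and 2956 CPM with saline and at 5852, 5803 and 5440 CPM with glycine (log2 fold change 0.91 ± 0.18, adjusted p = 0.02). The glycine libraries differ little among themselves here, while saline 2 is well above saline 1. Cd53, a tetraspanin of leukocytes, was at 148, 133 and 118 CPM with saline and at 300, 272 and 265 CPM with glycine (1.07 ± 0.14, adjusted p = 0.00259). Chil3, a chitinase-like protein of alternatively activated macrophages, was at 4.50, 2.51 and 7.51 CPM with saline and at 25.2, 29.97 and 24.2 CPM with glycine (2.43 ± 0.37, adjusted p = 0.0051). Plac8 rose by 1.44 ± 0.22 (adjusted p = 0.0051), and its call, like those of Cd53 and Chil3, remained in all 6 leave-one-out fits. The calls of Lyz2, Ctss, Cd68 and Fcer1g did not, with highest adjusted p of 0.0782, 0.0867, 0.119 and 0.157 (without saline 1, saline 1, glycine 5 and saline 1). Spi1, the transcription factor PU.1 that governs myeloid fate, was higher in value but did not pass (0.81, adjusted p = 0.071), and Cx3cr1, the fractalkine receptor, was at -0.19 (0.93).

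**Figure D1:**
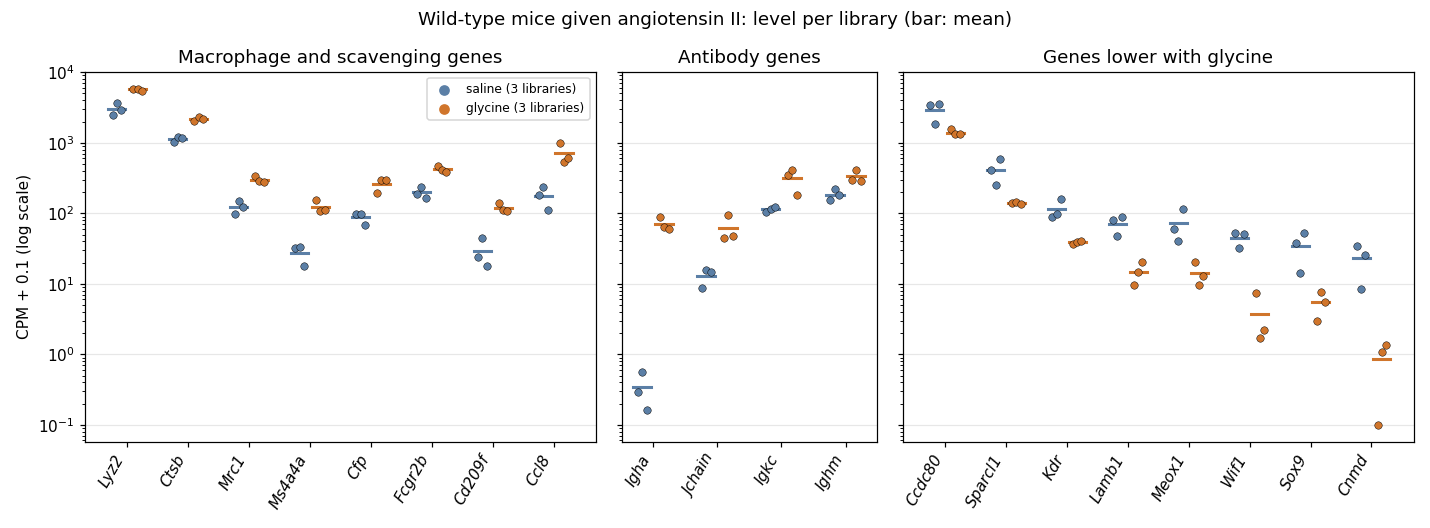
Level of 20 genes in each wild-type library, as CPM + 0.1 on a log scale; dots are libraries, with saline in blue and glycine in orange, and bars are group means. In the left and middle panels the orange dots lie above the blue dots of the same gene, as for Mrc1 at 280 to 340 against 98.2 to 148 CPM, and in the right panel they lie below, as for Lamb1 at 9.49 to 20.1 against 46.8 to 87.6 CPM.

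The MS4A genes encode small proteins with 4 membrane spans, and several are surface proteins of macrophages. Of 12 tested, 6 rose and none fell. Ms4a4a was at 31.7, 33.1 and 17.8 CPM with saline and at 154, 108 and 111 CPM with glycine (log2 fold change 2.17 ± 0.24, adjusted p = 0.000988). Ms4a6b was at 97.4, 120 and 110 CPM with saline and at 269, 263 and 270 CPM with glycine (1.29 ± 0.14, adjusted p = 0.000988). Neither gene has a saline library near its glycine libraries, and for Ms4a6b the glycine libraries are almost level with each other. Ms4a4c rose by 1.55 ± 0.22 (adjusted p = 0.00383), Ms4a7 by 1.28 ± 0.18 (0.00419), Ms4a6d by 1.5 ± 0.23 (0.0051) and Ms4a6c by 0.97 ± 0.18 (0.0143). All but Ms4a6c kept their calls in every leave-one-out fit (for Ms4a6c up to an adjusted p of 0.0555, without saline 3). Members that belong to lymphocytes and mast cells did not pass: Ms4a1, the B cell marker CD20, was at 0.77 (adjusted p = 0.77), and Ms4a2, a subunit of the mast cell IgE receptor, at 0.73 (0.96). The Ms4a6 genes resemble each other, so reads may be split between them, and their single levels are uncertain to that extent.

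Promoters of genes that rose together were read from RefSeq (build GRCm38.p6, 250 bases before to 50 bases after each gene start, printed in the direction of the gene). Ms4a6b and Ms4a6c share a run of 48 identical bases, shown in capitals because both genes rose and lie near each other on chromosome 19, at chr19:11518309-11518608 (+) and chr19:11469118-11469417 (+).
Ms4a6b: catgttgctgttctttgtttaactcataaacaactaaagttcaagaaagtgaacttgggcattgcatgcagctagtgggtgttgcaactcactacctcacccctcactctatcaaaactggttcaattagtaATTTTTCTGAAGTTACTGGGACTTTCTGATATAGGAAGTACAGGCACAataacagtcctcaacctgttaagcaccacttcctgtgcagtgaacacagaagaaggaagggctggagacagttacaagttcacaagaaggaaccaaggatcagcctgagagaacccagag
Ms4a6c: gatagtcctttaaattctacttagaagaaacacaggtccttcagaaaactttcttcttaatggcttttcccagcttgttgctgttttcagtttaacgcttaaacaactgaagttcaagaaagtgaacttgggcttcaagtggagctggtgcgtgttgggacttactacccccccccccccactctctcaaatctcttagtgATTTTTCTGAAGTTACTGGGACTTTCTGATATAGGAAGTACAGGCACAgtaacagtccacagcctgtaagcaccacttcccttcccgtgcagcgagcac

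The letters GAGGAAG, searched on both strands, are the core that PU.1 and related ETS factors bind in myeloid promoters. Among genes of the macrophage lists that rose, 45 had a promoter in the table and 14 of them held these letters (31.1%). The share was 16.2% of the 10670 tested genes with a promoter and 15.4% of 39 genes that fell. Among all 104 rises with a promoter, these 45 included, 28 held the letters (26.9%), so the share is not particular to the macrophage lists. Of the 20 such genes whose rise remained in all 6 leave-one-out fits, 16 had a promoter and 5 held the letters. The motif was picked after the values were known, so this is a description with no test. In the same 45 genes TGAGTCA was held by 11.1% (4.74% of tested genes), CACGTG by 11.1% (11.3%), and TTGCGCAA and ACAATGG by 0 (0.328 and 2.48%). Promoters of 4 genes described here are printed with GAGGAAG or its reverse complement in capitals, from chr3:106790100-106790399 (-), chr11:82114935-82115234 (+), chr2:14229164-14229463 (+) and chr6:122921598-122921897 (+).
Cd53: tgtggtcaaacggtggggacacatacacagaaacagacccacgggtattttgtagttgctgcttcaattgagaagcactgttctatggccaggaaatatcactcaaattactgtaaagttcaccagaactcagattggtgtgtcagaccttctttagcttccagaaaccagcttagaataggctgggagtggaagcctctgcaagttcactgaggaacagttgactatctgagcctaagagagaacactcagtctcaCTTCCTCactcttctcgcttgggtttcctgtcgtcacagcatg
Ccl8: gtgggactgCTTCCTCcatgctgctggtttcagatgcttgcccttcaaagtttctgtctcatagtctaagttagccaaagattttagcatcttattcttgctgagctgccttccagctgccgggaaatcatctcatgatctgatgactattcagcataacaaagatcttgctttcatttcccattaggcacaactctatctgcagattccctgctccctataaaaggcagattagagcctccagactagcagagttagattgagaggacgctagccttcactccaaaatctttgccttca
Mrc1: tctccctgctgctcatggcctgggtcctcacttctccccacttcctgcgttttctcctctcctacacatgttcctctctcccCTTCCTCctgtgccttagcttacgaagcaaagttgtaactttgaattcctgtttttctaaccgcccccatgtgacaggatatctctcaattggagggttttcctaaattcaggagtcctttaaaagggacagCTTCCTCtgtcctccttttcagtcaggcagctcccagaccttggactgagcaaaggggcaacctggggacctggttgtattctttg
Clec4a1: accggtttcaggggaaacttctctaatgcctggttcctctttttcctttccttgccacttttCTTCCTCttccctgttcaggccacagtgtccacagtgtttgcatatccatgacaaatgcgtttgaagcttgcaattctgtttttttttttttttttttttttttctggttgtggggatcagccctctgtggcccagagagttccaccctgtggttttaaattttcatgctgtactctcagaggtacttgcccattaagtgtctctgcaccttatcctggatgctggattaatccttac

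Receptors for sugars and for antibody followed the same direction. Of 21 C-type lectin receptor genes 8 rose and none fell. Clec10a, a galactose-binding lectin of macrophages and dendritic cells, was at 11.6, 17 and 13.8 CPM with saline and at 62.2, 38.5 and 49.9 CPM with glycine (log2 fold change 1.83 ± 0.23, adjusted p = 0.00202). Cd209d was at 3.24, 2.51 and 2.09 CPM with saline and at 18.4, 10.4 and 13.6 CPM with glycine (2.43 ± 0.37, adjusted p = 0.0051). Clec4a1 rose by 1.13 ± 0.19 (adjusted p = 0.0095), and these calls remained in all 6 leave-one-out fits. Of 12 Fc receptor genes 6 rose and none fell. Fcgr2b, the inhibitory IgG receptor, was at 189, 238 and 167 CPM with saline and at 472, 417 and 389 CPM with glycine (1.11 ± 0.15, adjusted p = 0.00383, called in all 6 fits). The activating receptor genes Fcgr1 and Fcgr3 rose by 1.54 ± 0.29 (adjusted p = 0.0155) and 0.69 ± 0.14 (0.0218), and Fcgrt, the receptor that recycles IgG, by 0.65 ± 0.13 (0.0192). Their highest adjusted p with a library left out were 0.0644 and 0.0876 without saline 1 and 0.0675 without glycine 6.

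Complement is a cascade of plasma proteins that tag particles for uptake. In the complement list 5 of 28 genes rose and 1 fell. Cfp, properdin, which stabilises the alternative pathway convertase, was at 99.2, 96.3 and 68.1 CPM with saline and at 194, 297 and 292 CPM with glycine (log2 fold change 1.57 ± 0.19, adjusted p = 0.00174, called in all 6 fits). Glycine 4 is the lowest of its group but still lies far above the highest saline library. C1qa and C1qb, chains of the C1q recognition molecule, rose by 1.03 ± 0.19 (adjusted p = 0.0148) and 0.89 ± 0.19 (0.0323). C5ar1 and C3ar1, receptors for the fragments C5a and C3a, rose by 1.02 ± 0.18 (0.0107) and 1.12 ± 0.25 (0.042). Cd55, which protects host cells from complement, fell from 140 ± 46.2 to 60.9 ± 12.7 CPM (SD, n = 3 libraries; -1.21 ± 0.24, edgeR adjusted p = 0.0197). Left-out libraries raised these adjusted p values to at most 0.0718, 0.13 and 0.0531 without glycine 6 for C1qa, C1qb and C5ar1, 0.143 without saline 1 for C3ar1, and 0.104 without saline 3 for Cd55.

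Of 41 lysosomal genes 10 rose (0.991% of all genes), 39 had a positive log2 fold change, and 27 had glycine libraries wholly above saline libraries (8.53% of all genes). Ctsb, the protease cathepsin B, was at 1038, 1222 and 1178 CPM with saline and at 2006, 2300 and 2182 CPM with glycine (0.92 ± 0.13, adjusted p = 0.00435). Lgmn, legumain, was at 487, 597 and 511 CPM with saline and at 1084, 962 and 1017 CPM with glycine (0.94 ± 0.15, adjusted p = 0.00643). In both genes the spread within a group is small beside the gap between groups. Ctsh rose by 0.80 ± 0.14 (adjusted p = 0.00999), and the calls of Ctsb, Lgmn and Ctsh remained in all 6 leave-one-out fits. With only the 6 wild-type libraries none of the lysosomal genes passed, and these had adjusted p of 0.0564, 0.0524 and 0.0855. Cathepsin genes Ctsd, Ctsa, Ctsc and Ctsl and the granulin precursor gene Grn rose by 1.16, 0.77, 1.02, 0.69 and 0.96. Their highest adjusted p were 0.0752 for Ctsd without glycine 6, 0.0591 for Ctsa without glycine 5, 0.084 for Ctsc without saline 1, 0.152 for Ctsl without glycine 6 and 0.057 for Grn without glycine 6. Membrane and lipid-handling members had smaller values that did not pass, such as Lamp1 (0.48, adjusted p = 0.24), Lipa (0.53, 0.18) and Npc1 (-0.41, 0.85). Pltp, the phospholipid transfer protein gene next to Ctsa, was named after its values were seen, and it rose by 1.18 (adjusted p = 0.0044). Apoe, the apolipoprotein that macrophages secrete, went from 2654 ± 239 to 4318 ± 200 CPM (SD, n = 3; 0.70 ± 0.14, edgeR adjusted p = 0.0221; 0.0855 without saline 1).

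Antigen presentation did not share this pattern at the threshold. None of 13 MHC class II pathway genes passed, although 12 had a positive value and the median was 0.34. H2-Aa, the alpha chain of I-A, was at 611, 947 and 759 CPM with saline and at 993, 987 and 1049 CPM with glycine (0.39 ± 0.16, edgeR adjusted p = 0.328). None of 10 tested NADPH oxidase genes passed either, the nearest being Rac2 (0.79 ± 0.19, adjusted p = 0.0584). At an unadjusted p below 0.05 there were 2 MHC class II genes and 5 NADPH oxidase genes, and DESeq2 called 0 and 1.

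Chemokine and cytokine genes moved in both directions. Of 40 chemokine and receptor genes 5 rose and 2 fell. Ccl9, a chemokine of myeloid cells, was at 69.0, 118 and 44.7 CPM with saline and at 241, 183 and 251 CPM with glycine (log2 fold change 1.55 ± 0.26, adjusted p = 0.00983, called in all 6 fits). Ccl2, which draws monocytes, was at 71.8, 84.1 and 59.8 CPM with saline and at 240, 131 and 152 CPM with glycine (1.28 ± 0.24, adjusted p = 0.0166; 0.0715 without saline 3). Ccl3, a further monocyte chemokine gene, rose by 1.26 ± 0.26 (0.0251; 0.0988 without saline 3). Ccl21a, the chemokine of lymphatic endothelium that guides dendritic cells, went the other way, from 137, 198 and 190 CPM with saline to 85.8, 85.9 and 71.9 CPM with glycine (-1.11 ± 0.19, adjusted p = 0.00967; 0.0531 without glycine 6). Its reads may be shared with the near-identical Ccl21d, which also fell (-1.67, adjusted p = 0.0095). Cxcl14, a chemokine of fibroblasts and epithelia, fell by 1.82 on the log2 scale (adjusted p = 0.0166; 0.0752 without glycine 6). Tnf and Il10, the main pro-inflammatory cytokine and its counterpart, were both higher from low levels, Tnf at 2.72 ± 1.73 against 13.4 ± 5.82 CPM and Il10 at 1.92 ± 0.947 against 9.92 ± 0.791 CPM (SD, n = 3; edgeR adjusted p = 0.0269 and 0.045; 0.118 without glycine 6 and 0.146 without saline 3).

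Toll-like receptors sense microbial molecules, and 3 of 23 genes of their list rose. Tlr13, a sensor of bacterial ribosomal RNA in the mouse, was at 22.2, 29.999 and 22.9 CPM with saline and at 105, 69.5 and 68.7 CPM with glycine (1.70 ± 0.28, adjusted p = 0.0095, called in all 6 fits). Tlr1 and Tlr2, which pair to bind bacterial lipopeptides, rose by 2.29 ± 0.49 (adjusted p = 0.0301; 0.113 without saline 3) and 1.09 ± 0.21 (0.02; 0.088 without glycine 6). The 30 interferon response genes showed no common direction, with 1 higher, 1 lower and a median of -0.06 (0.32 on FPKM). Iigp1, an interferon-induced GTPase of cell-intrinsic defence, was at 129, 116 and 154 CPM with saline and at 44.5, 49.0 and 64.2 CPM with glycine (-1.34 ± 0.20, adjusted p = 0.0051, called in all 6 fits). Ifi47, a GTPase of the same family, went from 23.8 ± 2.66 to 43.6 ± 3.96 CPM (SD, n = 3; 0.88 ± 0.18, edgeR adjusted p = 0.0228; 0.0991 without glycine 6).

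Antibody genes included the called gene with the largest fitted change among those with a count in both groups. Igha was at 0.19, 0.464 and 0.0615 CPM with saline, near the floor of 3 counts, and at 88.3, 62.9 and 60.6 CPM with glycine (log2 fold change 8.32 ± 0.37, adjusted p = 1.32e-08, called in all 6 fits). Of 13 tested genes of immunoglobulin constant regions and the J chain, 5 rose and none fell, with a median of 1.55. Jchain, which joins IgA and IgM into polymers, was at 8.69, 15.6 and 14.6 CPM with saline and at 45.1, 93.9 and 47.0 CPM with glycine (2.26 ± 0.30, adjusted p = 0.00357, called in all 6 fits). Igkc, the kappa light chain constant region, was at 106, 117 and 125 CPM with saline and at 345, 412 and 179 CPM with glycine (1.43 ± 0.25, adjusted p = 0.0103, called in all 6 fits). The glycine libraries keep a different order in each of these genes, with glycine 4 highest for Igha and glycine 5 highest for Jchain and Igkc. Ighm, the IgM heavy chain, rose by 0.85 ± 0.17 (adjusted p = 0.0188; 0.0914 without glycine 5) and Iglc2, a lambda constant region, by 1.55 ± 0.28 (0.0143; 0.0675 without glycine 6). Of 120 tested variable segments 4 rose, among them Ighv4-1 (5.69 ± 0.75, adjusted p = 0.0034, called in all 6 fits), whose reads may be shared with similar segments. Genes that mark the B lineage did not pass in any of 19 cases, with Cd79a, a subunit of the B cell receptor, at 0.57 (adjusted p = 0.72), Mzb1 of plasma cells at 1.06 (0.73) and Sdc1 at 0.20 (0.92). None of 25 tested T and NK cell genes passed. At an unadjusted p below 0.05 there were 1 B lineage gene and 3 T and NK cell genes, and DESeq2 called 1 and 0.

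**Figure D2:**
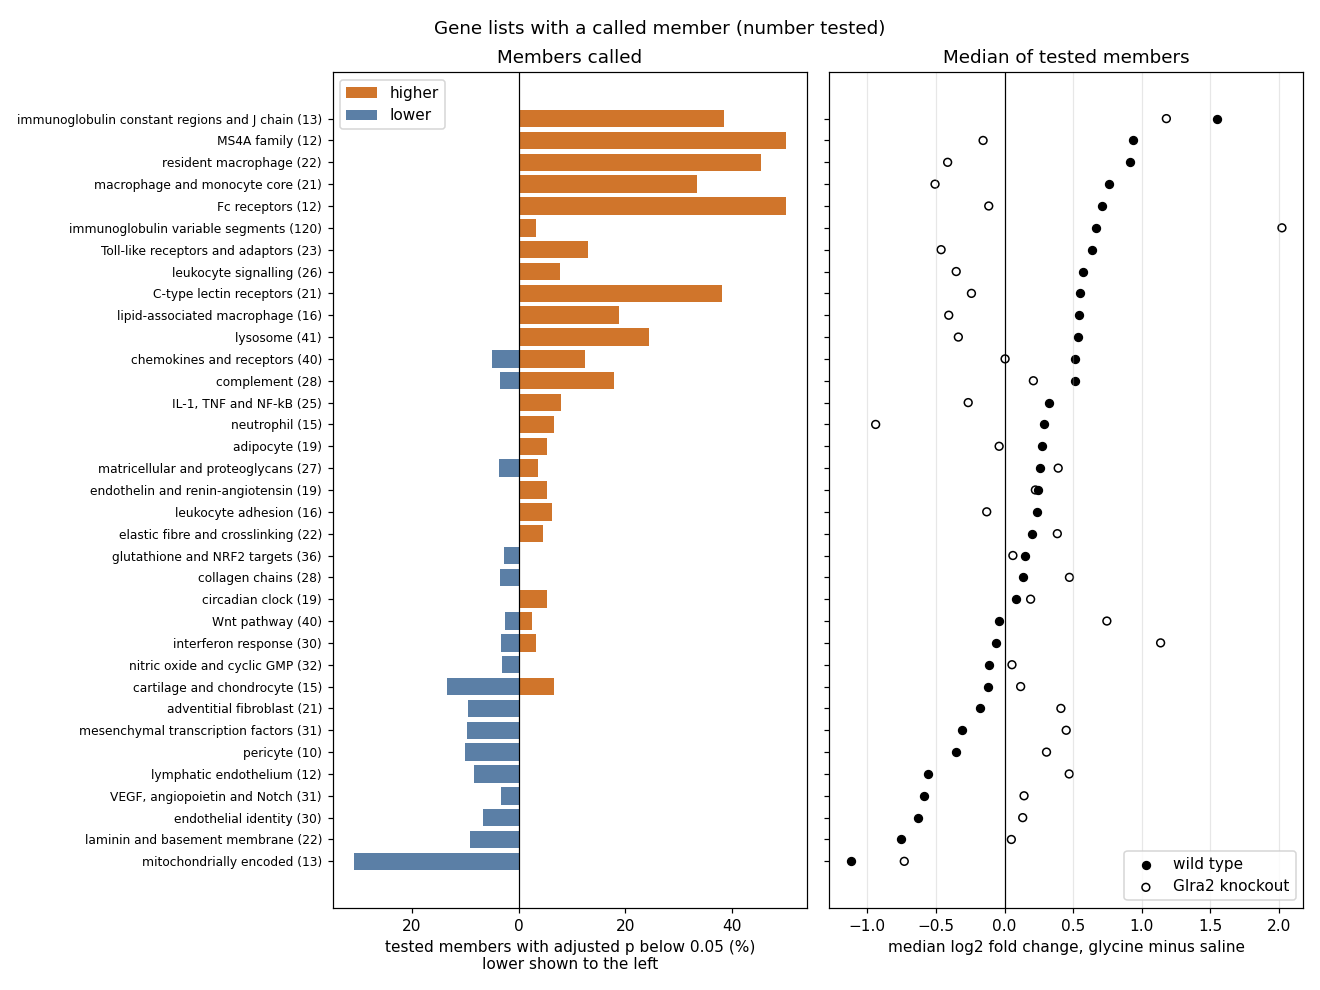
Gene lists with at least 10 tested members and at least 1 called member, ordered by wild-type median; the number tested is in brackets. The left panel gives the percentage of tested members called higher (right of 0) or lower (left of 0), and the right panel the median log2 fold change with glycine on count data in wild type (filled) and Glra2 knockout (open); the fibroblast, pericyte and mesenchymal medians of -0.18, -0.35 and -0.31 turn to 0.27, 0.13 and 0.06 on FPKM, below the shift of 0.36 of all genes there, and the Wnt, interferon and nitric oxide medians turn positive too.

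Among lower genes the endothelial lists are nearest to the labelled cell type. Of 30 endothelial identity genes 2 fell (0.395% of all genes) and none rose, 27 had a negative value, and 9 had glycine libraries wholly below saline libraries (7.19% of all genes). The median was -0.63 on counts and -0.12 on FPKM. Kdr, the main VEGF receptor of endothelium, was at 88.2, 97.5 and 158 CPM with saline and at 36.3, 39.1 and 40.7 CPM with glycine (log2 fold change -1.56 ± 0.30, adjusted p = 0.016; 0.0863 without saline 3). Podxl, a sialomucin of the luminal surface, was at 46.7, 56.5 and 67.8 CPM with saline and at 18.8, 29.9 and 26.4 CPM with glycine (-1.18 ± 0.27, adjusted p = 0.0447). The Podxl call ended whichever wild-type library was left out (up to an adjusted p of 0.192, without saline 3). On FPKM neither fall passed, with Kdr at -0.96 (limma adjusted p = 0.0701) and Podxl at -0.63 (0.229). Cdh5, VE-cadherin, was at 24.4, 40.6 and 29.5 CPM with saline and at 14.6, 13.8 and 14.3 CPM with glycine; the groups are apart, but it did not pass (-1.14 ± 0.43, edgeR adjusted p = 0.275). Pecam1 overlapped between groups, at 115, 134 and 161 against 104, 143 and 150 CPM (-0.04 ± 0.21, edgeR adjusted p = 0.976; 0.39 on FPKM). The mean log2 level of the list was 4.8 to 5.18 with saline and 3.96 to 4.61 with glycine, with glycine 4 lowest.

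Nitric oxide is the vasodilator made by endothelium, and of 32 genes of its synthesis and of cyclic GMP signalling 1 fell and none rose. Nos3, the endothelial nitric oxide synthase, was at 6.79, 12.4 and 8 CPM with saline and at 1.22, 6.94 and 6.70 CPM with glycine, ranges that overlap (-0.87 ± 0.69, edgeR adjusted p = 0.737). Pde1a, a phosphodiesterase that breaks down cyclic nucleotides, went from 39.98 ± 6.42 to 17.2 ± 3.98 CPM (SD, n = 3; -1.22 ± 0.28, edgeR adjusted p = 0.045; 0.18 without saline 3). Ednrb, the endothelin B receptor, was at 25.5, 22 and 53.6 CPM with saline and at 102, 75.3 and 85.4 CPM with glycine (1.37 ± 0.28, adjusted p = 0.0255; 0.106 without saline 1). It was the 1 riser among 19 endothelin and renin-angiotensin genes. None of 21 shear-response genes, 28 ion channel genes, 14 glycine receptor and transporter genes or 25 serine, glycine and one-carbon enzyme genes passed. In that order 1, 3, 1 and 1 of them had an unadjusted p below 0.05, and DESeq2 called 1, 1, 0 and 0. The glycine receptor beta subunit gene Glrb was at 4.38, 3.72 and 0.308 CPM with saline and at 0, 0.929 and 2.53 CPM with glycine (-1.27 ± 2.02, edgeR adjusted p = 0.906), so a change in it was not detectable at this depth.

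Basement membranes are the laminin and collagen IV sheets beneath endothelium and around muscle. Of 22 such genes 2 fell (0.395% of all genes), 20 had a negative value and 9 had glycine libraries wholly below saline libraries (7.19% of all genes). The median was -0.76 (-0.21 on FPKM). Lamb1, the laminin beta 1 chain, was at 79.8, 46.8 and 87.6 CPM with saline and at 9.49, 14.4 and 20.1 CPM with glycine (-2.28 ± 0.32, adjusted p = 0.00419, called in all 6 fits). Col4a1 was at 131, 143 and 123 CPM with saline and at 62.4, 64.4 and 62.5 CPM with glycine (-1.07 ± 0.24, adjusted p = 0.0432). Both groups are tight and apart for Col4a1, yet its call ended whichever wild-type library was left out (up to an adjusted p of 0.138, without glycine 6). Rgs5, a pericyte gene that dampens G protein signalling, did likewise, at 357, 325 and 278 CPM with saline and at 161, 143 and 136 CPM with glycine (-1.13 ± 0.24, adjusted p = 0.031; highest 0.127, without glycine 6). In the fit of the 6 wild-type libraries alone Kdr, Col4a1 and Rgs5 were among the 31 genes called (adjusted p = 0.0408 each). On FPKM Col4a1 was at -0.40 and Rgs5 at -0.66 and neither passed (limma adjusted p = 0.413 and 0.126). Partners of Lamb1 and Col4a1 had values in the same direction that did not pass, Lamc1 at -1.13 (adjusted p = 0.069), Lama4 at -1.16 (0.17) and Col4a2 at -0.75 (0.076).

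**Figure D3:**
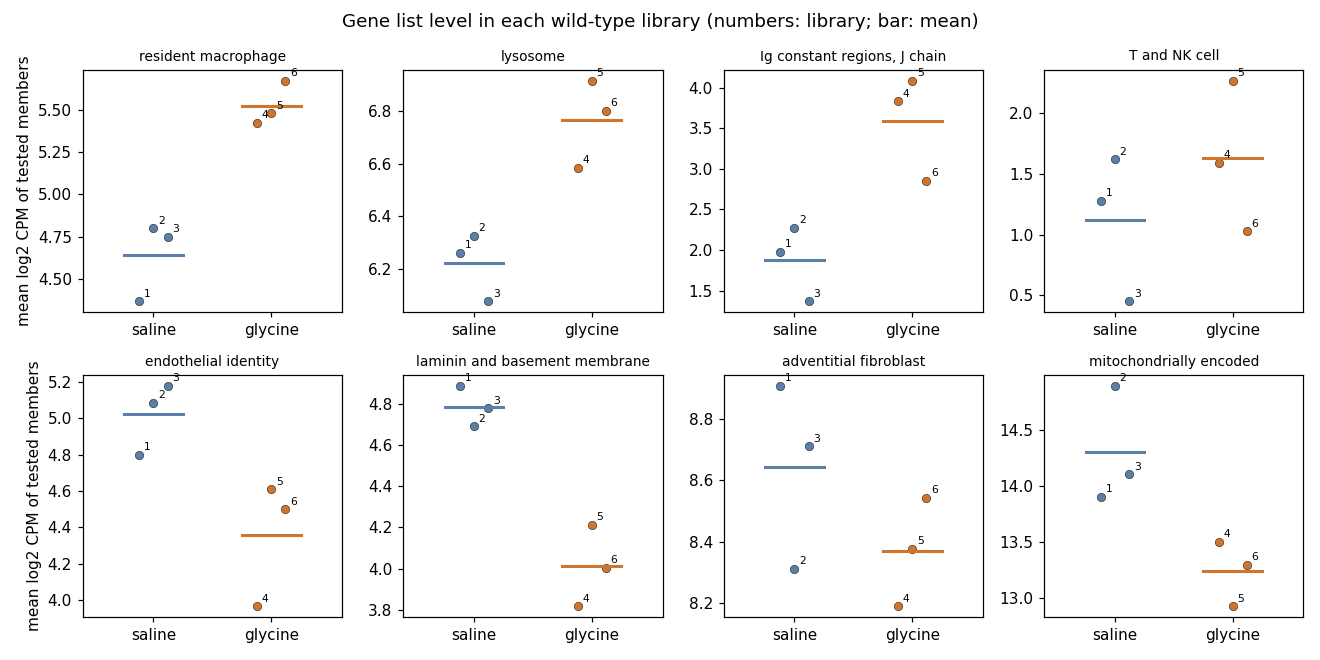
Mean log2 CPM of the tested members of 8 gene lists in each wild-type library; numbers by the dots are library numbers and bars are group means. The groups are apart for the resident macrophage (4.37 to 4.8 with saline, 5.42 to 5.67 with glycine), lysosome, immunoglobulin, endothelial, basement membrane and mitochondrially encoded lists, and overlap for the T and NK cell and fibroblast lists.

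Transcription factors of mesenchymal cells supplied 3 of the falls among 31 tested. Meox1, a homeobox factor of activated fibroblasts, was at 60.5, 39.8 and 115 CPM with saline and at 20.6, 9.68 and 12.7 CPM with glycine (log2 fold change -2.33 ± 0.39, adjusted p = 0.0095, called in all 6 fits). Tcf21, a factor of adventitial fibroblasts, was at 13.4, 10.3 and 15.3 CPM with saline and at 1.83, 0.88 and 2.43 CPM with glycine (-2.92 ± 0.60, adjusted p = 0.0246; 0.102 without saline 3). Sox9, the regulator of cartilage, was at 37.6, 13.9 and 52.5 CPM with saline and at 2.85, 7.68 and 5.49 CPM with glycine (-2.70 ± 0.50, adjusted p = 0.0152; 0.0942 without saline 3). Cnmd, a cartilage protein that inhibits vessel growth, was at 34.5, 8.36 and 25.7 CPM with saline and at 0, 0.978 and 1.27 CPM with glycine (-4.88 ± 0.84, adjusted p = 0.0101, called in all 6 fits). Saline 2 is the lowest saline library for Meox1, Tcf21, Sox9 and Cnmd alike. Of 15 tested cartilage genes 2 fell and 1 rose, and 7 had a positive value. In 3 the glycine libraries lay wholly below and in 1 wholly above saline libraries (7.19 and 8.53% of all genes). The riser was Comp, a matrix protein of cartilage and tendon, which went from 32.9 ± 12.5 to 72.9 ± 9.62 CPM (SD, n = 3; 1.15 ± 0.25, edgeR adjusted p = 0.0362; 0.126 without glycine 6), and Col2a1, Col9a3 and Snorc had 0 counts in all 6 libraries.

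Of 21 adventitial fibroblast genes 2 fell and none rose. The list median was -0.18 on counts and 0.27 on FPKM, and its level overlapped between groups. Ccdc80, a secreted matrix protein, was at 3448, 1872 and 3526 CPM with saline and at 1555, 1313 and 1316 CPM with glycine (-1.08 ± 0.20, adjusted p = 0.0155; 0.0838 without saline 3). Genes of secreted proteins that fell include Wif1, Ptn and Sparcl1. Wif1, which binds Wnt ligands outside the cell, was at 51.8, 31.7 and 50.6 CPM with saline and at 7.32, 1.61 and 2.11 CPM with glycine (-3.62 ± 0.60, adjusted p = 0.00943, called in all 6 fits). Ptn, the growth factor pleiotrophin, was at 38.4, 38.5 and 48.9 CPM with saline and at 11.9, 8.75 and 6.81 CPM with glycine (-2.20 ± 0.43, adjusted p = 0.0203; 0.0983 without glycine 6). Sparcl1, a matricellular protein related to SPARC, went from 416 ± 168 to 139 ± 5.26 CPM (SD, n = 3; -1.58 ± 0.29, edgeR adjusted p = 0.0137; 0.0627 without saline 3). In the opposite direction Lox, the enzyme that crosslinks collagen and elastin, was at 92.2, 71.5 and 46.6 CPM with saline and at 142, 186 and 196 CPM with glycine (1.32 ± 0.25, adjusted p = 0.0163; 0.0727 without glycine 6). Spp1, osteopontin, which macrophages and fibroblasts secrete, was at 38.8, 62.5 and 46.8 CPM with saline and at 164, 140 and 131 CPM with glycine (1.55 ± 0.31, adjusted p = 0.0235; 0.0954 without saline 1). Sfrp2, a secreted modulator of Wnt signalling made by fibroblasts, went from 178 ± 75.6 to 442 ± 20.4 CPM (SD, n = 3; 1.31 ± 0.29, edgeR adjusted p = 0.0422; 0.119 without glycine 6). None of 37 TGF-beta and BMP genes or 30 matrix protease genes passed, nor did any of 17 smooth muscle markers. At an unadjusted p below 0.05 there were 6, 7 and 0 genes of these lists, and DESeq2 called 2, 2 and 0.

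All 13 mitochondrially encoded genes had negative values, with a median log2 fold change of -1.12 (-0.61 on FPKM), and 4 fell. The gene mt-Nd5, a subunit of respiratory complex I, was at 15089, 28656 and 15889 CPM with saline and at 9280, 6287 and 7483 CPM with glycine (-1.37 ± 0.27, adjusted p = 0.0224; 0.106 without glycine 5). Saline 2 carries the highest value and glycine 5 the lowest, the order of the libraries' mitochondrial shares. Of 43 tested nuclear genes of the respiratory chain none passed (2 at an unadjusted p below 0.05, 0 with DESeq2), and their median was -0.15 (0.32 on FPKM).

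Further rises were in genes outside these groups. Tmem273, a small membrane protein gene, was at 0.127, 0 and 0.185 CPM with saline and at 15.7, 2.1 and 6.97 CPM with glycine (6.12 ± 0.96, adjusted p = 0.00587, called in all 6 fits). Tmem106a, a membrane protein gene of macrophages, was at 36.5, 42.6 and 43.6 CPM with saline and at 112, 98.6 and 123 CPM with glycine (1.44 ± 0.16, adjusted p = 0.000988, called in all 6 fits). Ptpn22, a phosphatase that restrains leukocyte receptors, Hk3, the hexokinase of myeloid cells, and Pik3r5, a regulatory subunit of PI3 kinase gamma, of which the first and last are the 2 risers among 26 leukocyte signalling genes, rose by 2.86, 2.41 and 2.82 (adjusted p = 0.0193, 0.0375 and 0.0481; 0.0831 without saline 3, 0.141 without glycine 5 and 0.149 without saline 3). Nr1d1, the clock repressor REV-ERB alpha, was at 10.1, 1.86 and 0.739 CPM with saline and at 30.3, 32.2 and 27.9 CPM with glycine (2.82 ± 0.65, adjusted p = 0.0479; 0.119 without glycine 5), and it was the 1 clock gene of 19 that passed. Pigg, an enzyme of membrane anchor synthesis, rose by 2.74 (adjusted p = 0.0145; 0.0627 without saline 3) and Retsat, a retinol saturase, by 2.31 (0.0471; 0.148 without saline 3). Some called genes had 0 counts in every saline library: Cd177, a neutrophil surface protein, was at least 47.1-fold higher with glycine, and Camp, a neutrophil granule peptide, at least 10.8-fold higher, both against 3 counts over the saline group. Their adjusted p were 0.0126 and 0.0197; the call of Cd177 remained in all 6 leave-one-out fits and that of Camp in 3 (0.062 without saline 3). Camp was the 1 gene of 15 in the neutrophil list that passed, and Cd177 was named after its values were seen. These bounds cover counting error only. In glycine libraries 4, 5 and 6 Cd177 had 43, 107 and 29 counts and Camp had 8, 14 and 19. The mean level of Camp with glycine was 0.743 CPM.

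The Glra2 knockout mice show where the wild-type response differed from that seen without the receptor subunit; the 2 contrasts share no library. In knockout mice glycine against saline called 157 genes (1.13%, 129 higher and 28 lower). A difference between the 2 responses, tested as the glycine by genotype interaction, was called for 155 genes (1.11%), 117 with the lower value in knockout and 38 with the higher. Of the 138 genes that rose in wild type, 69 had such an interaction, in each case with the lower value in knockout, and 86 had a negative value there. Among the 55 that fell, 9 had an interaction. Since these genes were picked on the wild-type effect, which is part of the interaction, this count is a description. The dose label of knockout glycine 5 is 80 mg/kg per day and that of every other glycine library 800. The 69 became 42 without it, 42 without knockout glycine 4, 45 without knockout glycine 6, 42 without knockout saline 2 and 35 without knockout saline 3.

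Of all 229 tested genes of the macrophage lists 45 had an interaction (19.7%, against 1.11% of all genes), each with the lower value in knockout. The lists were chosen with earlier results of these data known, so this share too is a description. Of the 53 rises in the macrophage lists 32 had an interaction, 39 had a negative value in knockout, 2 also rose there and 4 fell. Cfp had a log2 fold change of -0.89 in knockout (adjusted p = 0.0309) against 1.57 in wild type (interaction -2.46, adjusted p = 0.000539). Lyz2 was at -0.98 (0.0146) against 0.91 (interaction -1.89, 0.0021), Spp1 at -1.81 (0.0106) against 1.55 (interaction -3.37, 0.002) and Fcgr3 at -0.66 (0.0311) against 0.69 (interaction -1.35, 0.00444). These genes rose in wild type and fell in knockout, and they started from different levels. In saline libraries Spp1 was at 1571 ± 894 CPM in knockout and 49.4 ± 12.1 CPM in wild type, Lyz2 at 11769 ± 2584 and 3033 ± 615 CPM, and Cfp at 434 ± 38.1 and 87.9 ± 17.2 CPM (SD, n = 3). In glycine libraries Lyz2 was at 5974 ± 418 CPM in knockout and 5698 ± 225 CPM in wild type, and Cfp at 234 ± 10.7 and 261 ± 57.7 CPM. Spp1 remained higher in knockout with glycine, at 448 ± 67.0 CPM against 145 ± 17.1 CPM in wild type. The interaction holds these differences between saline groups as well as those between glycine groups. Ctsb, Mrc1 and Ms4a4a did not pass in knockout, at -0.50, -0.55 and -0.54, and had interactions of -1.42, -1.84 and -2.71 (adjusted p = 0.002, 0.00518 and 0.00186). Without knockout saline 3 the count of 32 was 19, without knockout glycine 4 it was 21, and it was 24 to 41 without any other single library.

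Other genes moved the same way in both genotypes. In all 15 genes were called in both with the same sign and 10 with opposite signs. Igha rose in knockout as well, by 1.71 (adjusted p = 0.00292), a smaller fold than in wild type (interaction -6.62, adjusted p = 4.01e-06). Its saline level was 66.3 ± 9.74 CPM in knockout, against 3, 5 and 1 counts in the wild-type saline libraries, and its glycine level was 216 ± 21.0 CPM in knockout against 70.6 ± 15.4 CPM in wild type (SD, n = 3). Igkc (1.43 and 1.18), Plac8 (1.44 and 1.75), Ms4a4c (1.55 and 0.99), Car3 (1.13 and 1.48), Lox (1.32 and 1.25) and Sfrp2 (1.31 and 1.91) rose in wild type and knockout by the log2 values given, with no interaction called. A p above the threshold does not show equal responses. Iigp1 went furthest in the opposite direction, falling by 1.34 on the log2 scale in wild type and rising by 2.25 in knockout (interaction 3.59, adjusted p = 2.27e-05). Ccl21a fell by 1.11 in wild type and rose by 0.90 in knockout (interaction 2.01, adjusted p = 0.002).

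**Figure D4:**
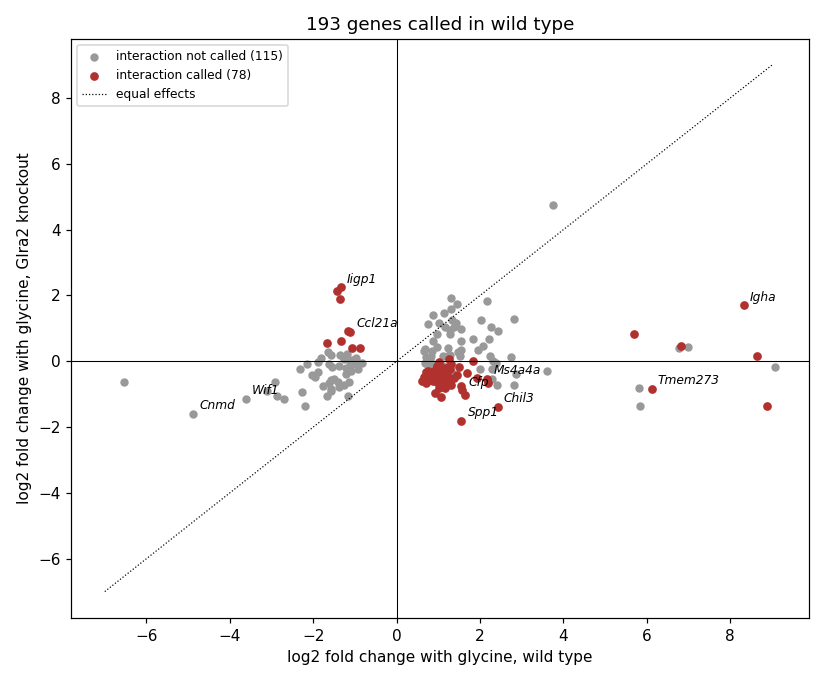
Log2 fold change with glycine in Glra2 knockout (vertical) against wild type (horizontal) for the 193 genes called in wild type; red marks the 78 genes with a called interaction, and the dotted line marks equal effects. Most red points lie right of 0 and below the horizontal zero line, and fitted values beyond 5 belong to genes near 0 counts in a group, where they depend on the prior count.

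How firmly the 193 calls stand depends on the libraries. In all 6 fits that left out 1 wild-type library 52 genes were called (43 higher, 9 lower), and 7 were called in none of them. The fit of the 6 wild-type libraries alone called 31 genes (18 higher, 13 lower), all of them among the 193. These include Igha, Ms4a6b, Ms4a4a, Tmem106a, Cfp, Clec10a, Cd53, Jchain, Cd209f, Ccl8, Mrc1, Lamb1, Iigp1, Wif1 and Kdr. Serpine2, an inhibitor of serine proteases, is a further member and was named after its values were seen; it was at 336, 207 and 353 CPM with saline and at 98.4, 83.7 and 100.4 CPM with glycine (-1.67, adjusted p = 0.0038).

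**Figure D5:**
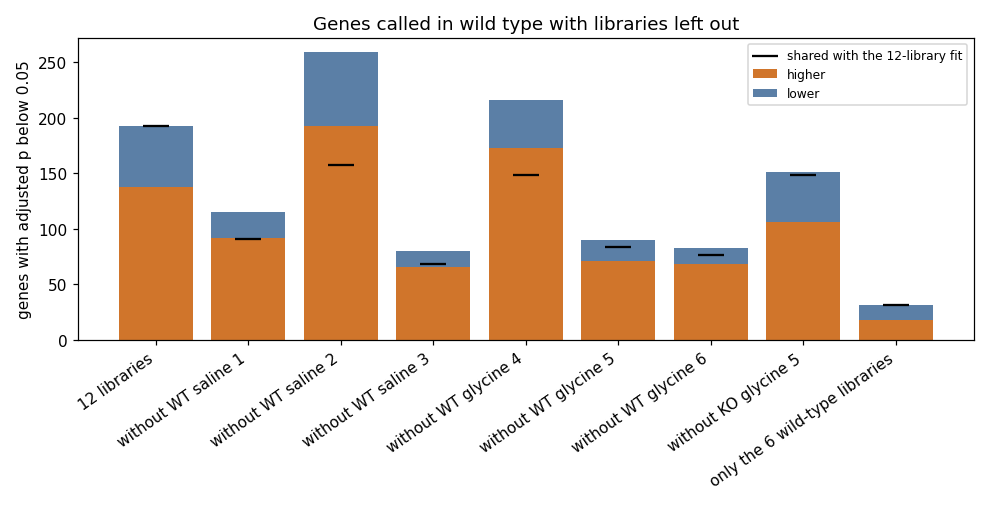
Number of genes called higher (orange) and lower (blue) in wild type with all 12 libraries, with 1 library left out, and with only the 6 wild-type libraries; black marks give how many of them are among the 193. The count runs from 80 without saline 3 to 259 without saline 2, and is 31 with only the wild-type libraries.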

How the data were processed

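RNA was sequenced from 12 libraries, of which the 6 wild-type ones are compared here. Per the submitters' processing notes the tools named were RSEM, Bowtie2 2.2.8, StringTie 1.3.1 and HISAT2 2.1.0; the genome build is not given in the sources used here. The authors deposited estimated counts per gene and, in the same table, FPKM values, which are scaled for gene length and library size by the authors. Of the estimated counts 10.4% were not whole, and all were rounded. Rows with no gene symbol (112, at most 0.0124% of a library's counts) were left out.

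Genes with low counts were removed by filterByExpr, leaving 13922 of 22013. Counts were scaled by TMM and tested with the edgeR 4.0.16 quasi-likelihood test (robust) in 1 model of the 4 groups with 12 libraries, and p-values were adjusted by Benjamini-Hochberg over all genes tested, with a threshold of 0.05. Adjusted p values without a named tool are from this test, and CPM values are TMM-scaled. The value after ±, unless SD is written, is the absolute log2 fold change divided by the square root of the F statistic. It approximates a standard error, is not estimated by the fit itself, and can be too small for genes near the floor, such as Igha. List levels are mean log2 CPM with a prior count of 2. The edgeR steps were tested on simulated data. Alternatives were DESeq2 1.42.0, limma 3.58.1 on log2(FPKM + 1), where fold changes of low genes are understated, other filters and scalings, and fits without 1 library (R 4.3.3). An exact permutation test of 3 against 3 libraries cannot go below p = 0.1.

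Of 62 gene lists, 1591 members were in the table and 1391 were tested; 5 symbols were not matched, and Fcrl2 in the table is the entry Fcrls, matched by its ID. Members and lists were chosen with earlier results of these data known. Genes are named by a rule: the 12 largest rises and 12 largest falls whose libraries did not overlap and whose higher mean reached 5 CPM, up to 6 called members per list with the smallest p (or the nearest 1), the 10 smallest p values among calls stable to leaving out any wild-type library, and a few fixed genes. Not all of the 12 falls and list members picked by this rule are described above. Other genes are named after their values were seen, among them Cd163, Folr2, Adgre1, Gas6 and members of a list given as not passing. Promoters and gene order are from RefSeq and GENCODE tables of build GRCm38. Replicate numbers did not pair the libraries. The result for 1 called gene is not reported here.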

Additional observations from a re-analysis of the deposited data

Results flagged for a closer look

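The response to glycine differed between the genotypes, by the interaction term of the edgeR fit, for 41 of the named genes. Values are the log2 effect in knockout minus that in wild type. Macrophage markers and secreted or surface proteins of these cells with the lower value in knockout were Chil3 (-3.81), Mrc1 (-1.84), F13a1 (-1.80), Cd53 (-1.50), Lyz2 (-1.89), Ctss (-1.07), Cd68 (-1.33), Spp1 (-3.37), Tmem106a (-1.87), Tlr13 (-2.05), Tlr2 (-1.48), Ccl9 (-2.29), Clec10a (-1.82) and Clec4a1 (-1.43). In the MS4A family they were Ms4a6b (-1.37), Ms4a4a (-2.71), Ms4a6d (-1.66) and Ms4a6c (-1.13). Complement and Fc receptor genes were Cfp (-2.46), C5ar1 (-1.70), C1qa (-1.56), C1qb (-1.29), Fcgr2b (-1.42), Fcrl2 (-1.92) and Fcgr3 (-1.35). Lysosomal genes were Ctsd (-1.98), Ctsb (-1.42), Lgmn (-1.19), Grn (-1.26) and Ctsa (-1.34). Antibody genes were Igha (-6.62) and Ighv4-1 (-4.85), and other genes with the lower value in knockout were Tmem273 (-6.96), Ednrb (-1.89), Hmox1 (-2.35), Ier3 (-1.95) and Pf4 (-1.43). The value was higher in knockout for Ccl21a (2.01), Iigp1 (3.59), Trbc2 (2.74) and Ccdc80 (1.49).

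Of these, Hmox1, the haem-degrading enzyme, Ier3, an early stress gene, Pf4, a chemokine of platelets that macrophages also make, and Trbc2, a T cell receptor constant region, did not pass in wild type alone (adjusted p = 0.0723, 0.0881, 0.0577 and 0.134). Trbc2 rose in knockout by 3.98 (adjusted p = 0.000358). Knockout glycine 5 carries a dose label of 80 mg/kg per day; what that did to these differences was not tested beyond leaving the library out, which gave 76 interaction calls over all genes instead of 155. Leaving out knockout glycine 4, glycine 6, saline 2 or saline 3 gave 80, 74, 71 and 59.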

How the results depend on the processing

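The count of 193 genes called in wild type was 522 with DESeq2, 1084 on FPKM with a pseudocount of 1, 1066 with 0.1 and 812 with no filter on FPKM, 31 with only the 6 wild-type libraries, and 80 to 259 with 1 wild-type library left out. It was 192 with DESeq2 size factors, 188 without the mitochondrially encoded genes, 222 with no filter on counts, 207 with a stricter one and 151 without knockout glycine 5. The 155 interaction calls were 507 with DESeq2 and 59 to 337 with 1 library left out. The wild-type groups share no replicate number, so a replicate block could enter the interaction alone, where it gave 38 calls; same-numbered libraries did not deviate together (r of -0.034 to 0.0193 over the 6 pairs), and the numbers were not taken as pairs. Direction turned for 5 genes that did not pass (log2 fold changes of -0.67 for Pln, 0.46 for Hba-a1, -0.04 for Pecam1, -0.45 for Ndufa9 and -0.40 for Ccnd1): with 1 wild-type library left out Pln ran from -0.917 to 0.0631 (positive without saline 2), Hba-a1 from -0.14 to 0.84 (negative without glycine 5) and Pecam1 from -0.16 to 0.15 (positive without saline 3, at 0.13, and glycine 4). On FPKM with pseudocounts of 1 and 0.1 Ndufa9 was at 0.01505 and 0.0161, Ccnd1 at 0.0729 and 0.0785, and Pecam1 at 0.39 and 0.40, and with no filter they were at 0.01505, 0.0729 and 0.39. The cause was not tested. For genes near the floor of 3 counts in a group, depth limits the size of a fold.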

Other observations

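A few further called genes were chosen after their values were seen and belong to no list; none of 31 fatty acid and 23 cholesterol synthesis genes of the lists passed (6 and 2 at an unadjusted p below 0.05, 1 and 0 with DESeq2). Fkbp5, a chaperone induced by glucocorticoids, was at 118, 106 and 79.8 CPM with saline and at 215, 229 and 268 CPM with glycine (log2 fold change 1.23 ± 0.22, adjusted p = 0.0121; 0.0531 without glycine 6). Hsd11b1, which regenerates active glucocorticoid, was at 117, 71.3 and 129 CPM with saline and at 39.7, 42.3 and 29.8 CPM with glycine (-1.50 ± 0.31, adjusted p = 0.0262; 0.126 without glycine 6). G0s2, an inhibitor of fat breakdown and the neighbour of Hsd11b1 on chromosome 1, went from 60.9 ± 2.94 to 28.6 ± 3.74 CPM (SD, n = 3; -1.09 ± 0.23, edgeR adjusted p = 0.0251; 0.112 without glycine 5). For each of them the groups do not overlap.

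When only tested genes were put in order along the chromosomes, 22 of the 193 called genes stood next to another gene called in the same direction. Of these, 20 were higher and 2 lower. Untested genes that lie between such neighbours were passed over. Over all genes tested 0.991% were called higher and 0.395% lower. The pairs and runs include Ms4a7 with Ms4a4a and Ms4a4c, Ccl9 with Ccl6 and Ccl3, Clec4a1 with Clec4a3, Cd209f with Cd209g and Gpr171 with P2ry14. No test of the clustering was made.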
